A study of Homo sapiens with 2 samples.

Results

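The set described here is made of ChIP-seq peak summits for WSTF in SW620 cells that lay at the ends of non-coding genes and away from the ends of protein-coding genes. A summit, the base of strongest enrichment in a peak, was taken when it was at most 2 kb from the start or end of a RefSeq gene that is not protein-coding and more than 1 kb from both ends of every protein-coding gene. Of 2697 summits, 246 met both conditions (9.12%, exact Clopper-Pearson 95% interval 8.06 to 10.3). A further 578 summits lay within 2 kb of a non-coding gene end but also within 1 kb of a coding gene end, and were not taken. The rule used positions alone, so scores, strand, promoter sequence and the kind of gene within the set were not part of it.

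SW620 is an established human colorectal adenocarcinoma cell line. The series holds 2 samples of this line, titled ChipSeq of SW620 and ChipSeq of SW620-IP, and 1 summit list that names the cell line and neither sample. Neither label gives a treatment, and the texts differ on whether WSTF was knocked down or overexpressed, so the state of WSTF in these cells is not known here. The list carries no replicates and no read counts. Intervals below therefore cover counting error only, the sequencing depth is unknown, and no test between samples could be made.

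WSTF, encoded by BAZ1B, is a bromodomain protein that works with the ISWI ATPase SMARCA5 to move nucleosomes. Non-coding genes are of several kinds. Long non-coding RNA (lncRNA) genes are transcribed by RNA polymerase II from promoters much like those of coding genes, and many start beside or inside a coding gene on the other strand. Some lncRNA genes are hosts, whose transcripts are cut into microRNAs (miRNAs) or small nucleolar RNAs. tRNA genes are transcribed by RNA polymerase III, and pseudogenes are copies of coding genes that mostly lack a promoter of their own.

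Among lncRNA genes that host miRNAs, 7 had a summit of the set, and the miRNAs they encode are shown first because their known roles tie these loci to cell growth and to the intestine. Mature sequences are from RefSeq (GRCh38.p14), and capitals mark the seed, bases 2 to 8, which pairs with target mRNAs. MIRLET7A1HG on chromosome 9 hosts 3 miRNAs of the let-7 family, a group known for restraining growth-promoting mRNAs, and all 3 share the seed GAGGUAG.
let-7a-5p: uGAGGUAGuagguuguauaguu
let-7f-5p: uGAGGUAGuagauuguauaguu
let-7d-5p: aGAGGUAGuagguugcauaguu
MIR17HG on chromosome 13 hosts the miR-17-92 cluster, known for promoting proliferation. Its members include pairs with shared seeds, AAAGUGC for the first pair below and GUGCAAA for the second, next to miR-18a and miR-92a with seeds of their own.
miR-17-5p: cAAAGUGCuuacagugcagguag
miR-20a-5p: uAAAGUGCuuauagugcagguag
miR-19a-3p: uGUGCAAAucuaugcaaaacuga
miR-19b-3p: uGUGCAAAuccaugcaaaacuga
miR-18a-5p: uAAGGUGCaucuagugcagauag
miR-92a-3p: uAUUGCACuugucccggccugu
DLEU2, also on chromosome 13, hosts miR-15a and miR-16-1, which share the seed AGCAGCA and are known for targeting BCL2.
miR-15a-5p: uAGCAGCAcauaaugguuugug
miR-16-5p: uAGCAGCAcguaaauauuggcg
MIR132 and MIR212 on chromosome 17 are neighbouring genes whose miRNAs share the seed AACAGUC, and a single summit lay within 2 kb of both.
miR-132-3p: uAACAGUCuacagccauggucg
miR-212-3p: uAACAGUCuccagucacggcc
The other 4 host genes carry miRNAs with unrelated seeds. These are miR-7 (MIR7-3HG), the hypoxia-induced miR-210 (MIR210HG), miR-31 (MIR31HG), and miR-192 with miR-194 (MIR194-2HG), the last pair known for expression in intestinal epithelium.
miR-7-5p: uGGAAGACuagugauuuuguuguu
miR-210-3p: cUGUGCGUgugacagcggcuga
miR-31-5p: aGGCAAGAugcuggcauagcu
miR-192-5p: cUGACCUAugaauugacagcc
miR-194-5p: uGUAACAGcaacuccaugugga

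At the host genes the end that carried the summit was the start of the gene. A host gene was counted only when a summit lay within 2 kb of its start or end. In a long gene the distance from an inner hairpin therefore follows from the rule. The MIR31HG summit (chromosome 9 position 21559792, score 4.94) was 6 bp from the outer end of the gene and 47607 bp from the MIR31 hairpin. The DLEU2 summit (50124686, score 5.63) was 855 bp from the gene end and 75485 bp from the MIR15A hairpin. In short genes the distances were smaller. The MIR210HG summit (chromosome 11 position 568480, score 6.26) was 23 bp outside the gene and 282 bp from MIR210, and the MIR17HG summit (91347749, score 4.54) was 62 bp from the gene end and 2856 bp from MIR17. MIRLET7A1HG had its summit 533 bp from the gene end with a score of 7.71, and MIR194-2HG had one at 108 bp with a score of 2.52. The highest host-gene score, 41.5, was at MIR7-3HG (chromosome 19 position 4769702), 597 bp inside the gene and 968 bp from MIR7-3. Across the miRNA host list, 7 of 89 genes (7.87%, 3.22 to 15.5) had a summit of the set, where 1.21% of all lncRNA genes had one. The list was chosen with earlier results of these data known, and no excess was tested. Scores here are those given by the authors' peak caller, read as −log10 of a q-value, and the median over all 2697 summits was 3.72.

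Promoter sequence of 3 of these host genes, of MALAT1 and of the divergent transcript EN2-DT is shown next, because windows at the summits mostly had a high GC content. The 3 have the highest GC content among the host genes with a summit of the set. Windows of the other hosts had 72.7% (MIRLET7A1HG), 64% (DLEU2 and MIR194-2HG) and 56.3% (MIR7-3HG, without a GC box). Each window runs from 250 bases before to 50 after the gene's start, 5′ to 3′, from RefSeq (GRCh38.p14, the coordinates of hg38). Capitals mark every match, on either strand, to the motifs searched. These were the GC box GGGCGG, the TATA box TATAAA, the CCAAT box CCAAT, the E-box CACGTG, the ETS motif CCGGAAG, the CRE TGACGTCA, the NRF1 motif (GCGCA, any base, then GCGC), the AP-1 motif TGANTCA, the YY1 motif AAGATGG and the ZBTB33-like motif (TCTCG followed by CGAGA). Matches may overlap each other. MIR17HG (chr13:91347437-91347736, plus strand) has 42 CpG dinucleotides and 6 GC boxes, and its summit lay 62 bp after the start, just past the window.
MIR17HG: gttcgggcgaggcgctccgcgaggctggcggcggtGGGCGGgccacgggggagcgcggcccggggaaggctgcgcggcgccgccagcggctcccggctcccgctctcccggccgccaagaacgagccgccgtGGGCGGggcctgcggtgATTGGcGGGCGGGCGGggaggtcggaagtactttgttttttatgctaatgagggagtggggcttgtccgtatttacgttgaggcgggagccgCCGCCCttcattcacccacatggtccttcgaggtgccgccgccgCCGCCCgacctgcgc
MIR31HG (chr9:21559749-21560048, minus strand) has 4 GC boxes, and its summit fell on base 257 of the window.
MIR31HG: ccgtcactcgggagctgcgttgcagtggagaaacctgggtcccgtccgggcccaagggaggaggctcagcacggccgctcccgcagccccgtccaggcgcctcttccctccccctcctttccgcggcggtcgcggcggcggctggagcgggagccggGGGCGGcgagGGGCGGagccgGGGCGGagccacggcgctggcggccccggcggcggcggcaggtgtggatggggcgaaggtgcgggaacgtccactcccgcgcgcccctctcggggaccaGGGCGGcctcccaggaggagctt
MIR210HG (chr11:568408-568707, minus strand) is 80.0% G or C, with its summit on base 228.
MIR210HG: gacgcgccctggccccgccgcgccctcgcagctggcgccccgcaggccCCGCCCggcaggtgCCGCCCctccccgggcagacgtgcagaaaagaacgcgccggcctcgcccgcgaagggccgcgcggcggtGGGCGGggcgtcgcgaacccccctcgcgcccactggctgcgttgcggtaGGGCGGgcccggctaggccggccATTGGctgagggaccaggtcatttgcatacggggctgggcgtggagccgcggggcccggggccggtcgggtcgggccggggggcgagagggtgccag
MALAT1 (chr11:65497488-65497787, plus strand), an abundant nuclear lncRNA linked to metastasis, has 5 GC boxes and 1 NRF1 match, with its summit on base 74.
MALAT1: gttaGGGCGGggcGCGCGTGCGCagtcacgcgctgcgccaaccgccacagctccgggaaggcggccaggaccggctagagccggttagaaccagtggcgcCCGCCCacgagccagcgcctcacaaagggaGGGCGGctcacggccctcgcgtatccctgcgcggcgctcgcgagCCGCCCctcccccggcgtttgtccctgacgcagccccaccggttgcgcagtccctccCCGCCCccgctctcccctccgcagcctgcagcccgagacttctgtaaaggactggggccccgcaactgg
EN2-DT (chr7:155457069-155457368, minus strand) is shown for contrast as a window with its summit on base 278, 23 CpG dinucleotides and no GC box. Its summit scored 1.54.
EN2-DT: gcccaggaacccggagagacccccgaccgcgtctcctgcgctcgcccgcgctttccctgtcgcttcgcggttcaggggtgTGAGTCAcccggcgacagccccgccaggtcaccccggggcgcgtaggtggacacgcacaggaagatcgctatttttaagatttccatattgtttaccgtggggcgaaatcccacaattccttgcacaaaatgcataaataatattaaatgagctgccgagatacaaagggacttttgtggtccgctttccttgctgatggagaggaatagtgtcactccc

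The nearest non-coding gene was a lncRNA for 199 of the 246 summits (80.9%, 75.4 to 85.6), a pseudogene for 23 (9.35%), a miRNA for 12 (4.88%) and a tRNA for 7 (2.85%). The remaining 5 were nearest to 3 immunoglobulin or T cell receptor segments, 1 snRNA gene and 1 snoRNA gene. Several non-coding genes can lie within 2 kb of a summit, as at 46 of the 246, so the set touched 302 non-coding genes. That is 0.762% of the 39642 non-coding genes in the annotation, and the share differed by class. For lncRNA genes it was 222 of 18322 (1.21%, 1.06 to 1.38). Among tRNA genes it was 15 of 443 (3.39%, 1.91 to 5.52), although these 15 shared 9 summits. miRNA genes were at 22 of 1913 (1.15%, 0.722 to 1.74) and snoRNA genes at 4 of 1199 (0.334%). For rRNA genes it was 2 of 49 (4.08%, 0.498 to 14.0), both at 1 summit. It was 1 of 154 (0.649%) for snRNA genes and 3 of 601 (0.499%) for immunoglobulin or T cell receptor segments. None of the 112 other small RNA genes had one (interval to 3.24%).

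Pseudogenes separated by whether they are annotated as transcribed. Of 1265 transcribed pseudogenes 20 had a summit of the set (1.58%, 0.968 to 2.43), against 13 of 15580 other pseudogenes (0.0834%, 0.0444 to 0.143). The 2 intervals did not overlap. They treat genes as independent, although some pseudogenes shared a summit, as PMS2P1 and STAG3L5P did. Summits nearest to a transcribed pseudogene numbered 15. Over all non-coding genes the share was 0.762%. Transcribed pseudogenes with summits close to an end included ZNF56P (score 5.27, 150 bp), AHSA2P (5.20, 384 bp), ZNF767P (4.93, 356 bp), RP9P (4.44, 342 bp) and PMS2P3 (3.02, 82 bp). Many pseudogenes are near-identical to a coding gene elsewhere, so reads could have been shared between copies and these assignments are uncertain. The class also holds ORAI1, the gene of a calcium channel subunit, which this annotation lists as a transcribed pseudogene. Its summit scored 3.05.

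Names of the lncRNA genes showed what kinds they are. Antisense symbols (ending in AS) made up 49 of the 199 (24.6%), placeholder symbols (LOC) 80 (40.2%), intergenic symbols (LINC) 26 (13.1%) and divergent symbols (DT) 12 (6.03%). Read per gene, 52 of 2063 antisense genes (2.52%, 1.89 to 3.29) had a summit of the set, as did 13 of 593 divergent transcripts (2.19%), 36 of 2303 LINC genes (1.56%) and 90 of 15659 placeholder genes (0.575%, 0.462 to 0.706). These per-gene counts cover every non-coding gene with such a symbol. Placeholder symbols are also carried by pseudogenes, such as LOC100132570, so the 0.575% is not a share of lncRNA genes. Divergent transcripts sit beside coding promoters, and with all summits counted 122 of the 593 had one within 2 kb. Most of these were also within 1 kb of a coding end and were not taken.

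Scores in the set were close to those of the list as a whole. The median was 3.87 (95% interval 3.68 to 4.21), with quartiles at 2.87 and 5.20, against 3.72 (3.69 to 3.76) for all summits and 3.72 for the 1973 summits within 1 kb of a coding end. The 478 summits that were away from both kinds of end had a median of 3.49 (3.23 to 3.68). At or above the list's median were 137 of the 246 (55.7%, 49.2 to 62.0), where the share over all summits was 51.5%. A score of 10 or more was reached by 3 of the 246, 1.22%, against 1.56% of all summits. By class, the medians were 3.74 at lncRNAs, 4.26 at pseudogenes, 3.97 at miRNAs and 4.30 at tRNAs, with overlapping intervals. Scores were often tied, and 13 summits of the set carried the same value of 3.02.

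**Figure D1:**
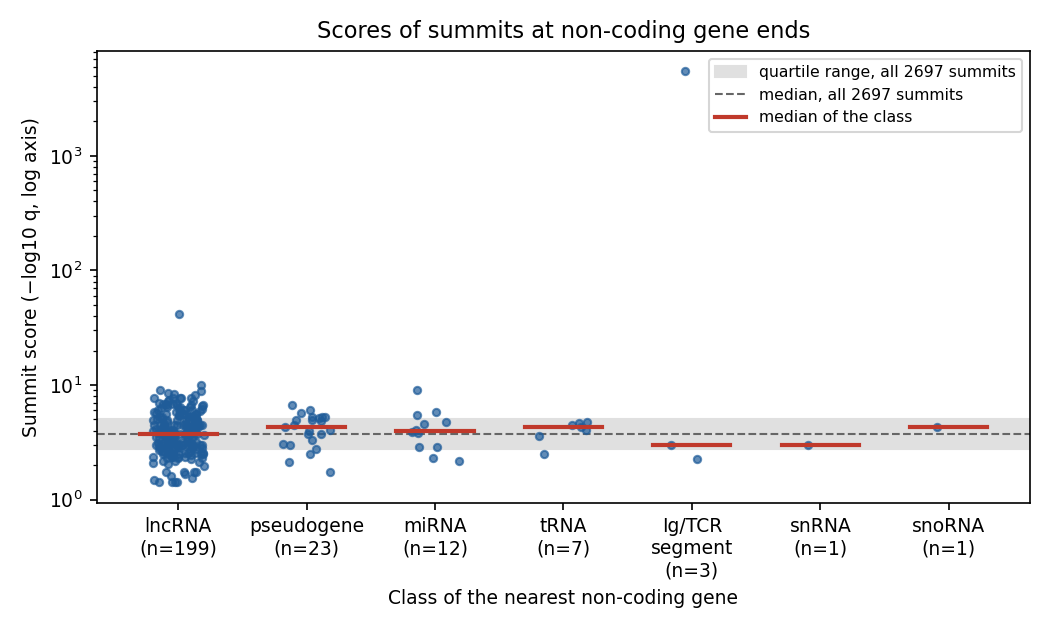
Scores of the 246 summits (vertical axis, −log10 q, logarithmic) by class of the nearest non-coding gene (horizontal axis). Each point is a summit, red bars are class medians, the dashed line and grey band are the median and quartile range of all 2697 summits; every class median lies inside the band, and the summit at IGHG1 stands apart at 5479.

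The highest scores belonged to few loci. The summit inside IGHG1, an immunoglobulin heavy chain constant gene, scored 5479 and was the highest of the whole list, and the next in the set was the 41.5 at MIR7-3HG. Immunoglobulin gamma genes are near-identical copies, and a second summit of the set lay at the pseudogene IGHGP with a score of 3.02. After these came LOC105369632 on chromosome 12 (10.0), whose end was 1902 bp away, and ZNF232-AS1 on chromosome 17 (9.13), 65 bp inside the gene. MIR10396B on chromosome 21 (9.10) lies in a ribosomal DNA unit, and its summit at 8435145 was also within 2 kb of RNA45SN1, the ribosomal RNA precursor gene, and RNA18SN1. Ribosomal DNA is repeated many times, so this position too is uncertain. MELTF-AS1 followed with 8.83, LOC107984510 inside NR4A1 with 8.54 and LINC03065 with 8.38. HSPA2-AS1, antisense to a heat shock protein gene, had a summit of 7.76 and another of 2.57. ENEMAL, a lncRNA upstream of MALAT1 on chromosome 11, had one of 7.36 at 16 bp. Of the 20 highest, 18 were nearest to a lncRNA and 9 lay inside a coding gene.

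Summits gathered close to the ends of the non-coding genes. The median distance was 341 bp (262 to 404), and 104 (42.3%, 36.0 to 48.7) were within 250 bp, 151 within 500 bp and 199 within 1 kb. The rule capped this distance at 2 kb, so the shares describe the spread inside that window. Inside the nearest gene lay 114 summits and outside it 132. The median score was 3.80 up to 250 bp, 3.74 from 250 bp to 1 kb and 4.04 from 1 to 2 kb, with overlapping intervals. At the 2 kb limit, the last summits inside were at LINC01124 (1970 bp, score 3.44) and LRP8-DT (1918 bp, 5.04), and the first outside were at LOC124900316 (2101 bp, 3.05) and LINC03108 (2120 bp, 1.90). At the 1 kb limit from coding ends, those just kept were 1006 bp from STK39 (3.02) and 1020 bp from ING2 (5.27), and those just left out were 988 bp from CAVIN1 (2.40) and 981 bp from SERTAD3 (9.33).

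The end that carried the summit was mostly the 5′ end. Strand was known for 154 summits, all at lncRNA genes with an entry in the promoter table. At 135 of them (87.7%, 81.4 to 92.4) the 5′ end was the nearer end, and at 19 (12.3%) the 3′ end was nearer. Restricted to summits within 1 kb of the gene end, 119 of 127 (93.7%, 88.0 to 97.2) were nearer the 5′ end. Coding genes, for comparison over their own 1 kb window, had 1621 of 1654 (98.0%, 97.2 to 98.6) nearer the 5′ end. Among lncRNA genes of at least 5 kb, 80 of 88 summits (90.9%, 82.9 to 96.0) were nearer the 5′ end. Within 500 bp of the 5′ end lay 91 of the 154 summits, and within 500 bp of the 3′ end 5.

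With alternative transcripts counted, 73 of the 154 (47.4%, 39.3 to 55.6) were within 250 bp of an annotated start of their own lncRNA gene and 119 (77.3%) within 1 kb. For the 134 within 2 kb of such a start the median position was 16.5 bp upstream, with quartiles from 226 bp upstream to 197 bp downstream. Summits thus lay about evenly on both sides, and 70 of the 135 at 5′ ends (51.9%, 43.1 to 60.5) were downstream of the outer end.

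**Figure D2:**
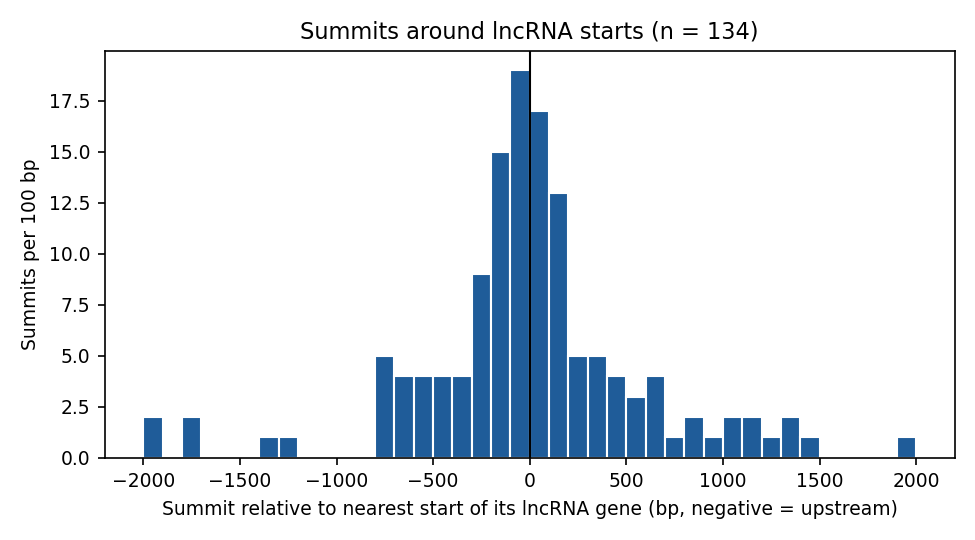
Number of summits per 100 bp (vertical axis) by distance in bp from the nearest annotated start of their lncRNA gene (horizontal axis, negative upstream), for the 134 summits within 2 kb of such a start. The tallest bars flank the start on both sides, and the quartiles are 226 bp upstream and 197 bp downstream.

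The label of non-coding ends only held for the outer ends of coding genes and less so for their internal starts. Of the 237 summits on chromosomes with promoter entries, 58 (24.5%, 19.1 to 30.5) lay within 1 kb of an annotated start of some coding transcript, and 37 (15.6%) within 250 bp. Over all summits the share within 1 kb was 70.3%. All 58 were inside the coding gene, more than 1 kb from its outer ends. Examples with high scores were ZNF232-AS1, 122 bp upstream of a ZNF232 start (9.13), LOC105374813, 75 bp downstream of a GCFC2 start (7.71), TPM1-AS, 157 bp upstream of a start of the tropomyosin gene TPM1 (7.71), and MCF2L-AS1, 55 bp upstream of an MCF2L start (6.88). From the nearest start of its own lncRNA gene the summit was 65 bp away at ZNF232-AS1 and also at LOC105374813, 521 bp at MCF2L-AS1 and 1055 bp at TPM1-AS. Among these 4 the coding start was thus the nearer at MCF2L-AS1 and TPM1-AS, and the lncRNA start at the other two. The median score was 3.66 (3.02 to 4.29) for the 58 and 3.89 (3.63 to 4.29) for the other 179.

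Coding genes contained 116 of the 246 summits (47.2%, 40.8 to 53.6), where 60.0% of all summits lay inside one. Among the 74 of these with a strand for the lncRNA, 67 (90.5%, 81.5 to 96.1) were at a lncRNA on the strand opposite to the coding gene and 5 on the same strand. In the annotation as a whole, 2846 of 3219 lncRNA genes that start inside a coding gene (88.4%, 87.3 to 89.5) are on the opposite strand. The nearest coding end was 1 to 2 kb away for 59 summits (24.0%), 2 to 5 kb for 38, 5 to 10 kb for 31, 10 to 50 kb for 83 (33.7%) and more than 50 kb for 35 (14.2%). The median score was 4.28 (3.44 to 4.90) at 1 to 2 kb and 4.01 (3.59 to 4.44) beyond 10 kb.

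Promoter windows at the summits were rich in G and C. At the 73 lncRNA starts within 250 bp of a summit the median GC content was 73% (95% interval 70.3 to 75), against 50% (49.7 to 50.3) for all 12917 lncRNA windows in the table. Coding starts within 250 bp of a coding-end summit had 69.7% (69.3 to 70.3, 1254 windows). The observed to expected ratio of CpG dinucleotides had a median of 0.89 at the 73 starts, 0.29 over all lncRNA windows and 0.90 at the coding starts with summits. With at least 55% GC and a ratio of at least 0.6, a rule of thumb for CpG islands, 64 of 73 (87.7%, 77.9 to 94.2) qualified, against 23.0% of lncRNA windows and 94.0% of the coding windows with summits. Where the summit was more than 1 kb from any start of the lncRNA gene, the 34 windows at those starts had a median GC of 63.2% and 35.3% (19.7 to 53.5) qualified. GC content was not among the conditions of the rule, and its part in how many reads a site gathers was not tested. At many of the 73 starts, such as those of ZNF232-AS1 and JARID2-AS1, the summit was also within 1 kb of an annotated coding start. These were not set apart, so the 73 windows do not describe lncRNA promoters alone.

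**Figure D3:**
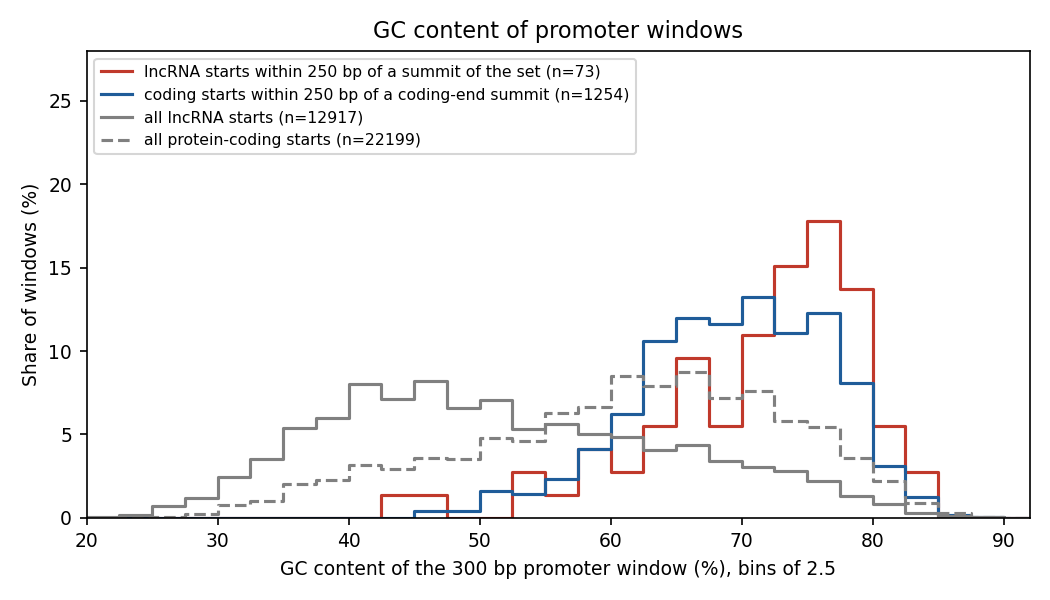
Share of promoter windows (vertical axis, %) by GC content (horizontal axis, bins of 2.5%) for lncRNA starts within 250 bp of a summit of the set (red, 73), coding starts within 250 bp of a coding-end summit (blue, 1254), all lncRNA starts (solid grey) and all coding starts (dashed grey). The median is 73% for the red curve and 50% for the solid grey curve, and most of the red curve lies to the right of both grey curves.

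Motif shares differed in direction from motif to motif. The GC box, bound by SP and KLF factors, was found in 67 of the 73 windows (91.8%, 83.0 to 96.9), 25.5% of all lncRNA windows, 45.0% of all windows in the table and 83.3% (81.1 to 85.3) of the coding windows with summits. The NRF1 motif was in 13 windows (17.8%, 9.84 to 28.5), against 3.03% of lncRNA windows and 20.9% of coding windows with summits. The TATA box was in 2 (2.74%, 0.334 to 9.55), against 15.1% of lncRNA windows. The CCAAT box was in 16 (21.9%, 13.1 to 33.1), against 34.5% (33.7 to 35.3) of lncRNA windows and 35.2% (32.6 to 38.0) of coding windows with summits. The ETS motif was in 7 windows (9.59%, 3.94 to 18.8) and in 24.4% (22.0 to 26.9) of the coding windows with summits, where the intervals did not overlap. The YY1 motif showed the same pattern, in 1 window (1.37%, 0.0347 to 7.40) against 9.25% (7.70 to 11.0). The AP-1 motif was in 7 (9.59%) and in 3.27% (2.36 to 4.41) of the coding windows with summits, with overlapping intervals. Over all lncRNA windows the shares were 5.82% for the ETS motif, 5.50% for the YY1 motif and 10.4% for the AP-1 motif. The E-box was in 6 of the 73 windows (8.22%), the CRE in 2 and the ZBTB33-like motif in 0 (interval to 4.93%). Shares in all windows of the table were 11.5% for the TATA box, 34.6% for the CCAAT box, 7.26% for the E-box, 10.3% for the ETS motif, 1.85% for the CRE, 5.78% for the NRF1 motif, 7.71% for the AP-1 motif, 5.84% for the YY1 motif and 0.424% for the ZBTB33-like motif. A match describes the letters of the window and is not a bound site. The 73 windows and all lncRNA windows also differed in median GC content, 73% against 50%. Shares were not matched for GC content, and its part in the motif differences was not tested.

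**Figure D4:**
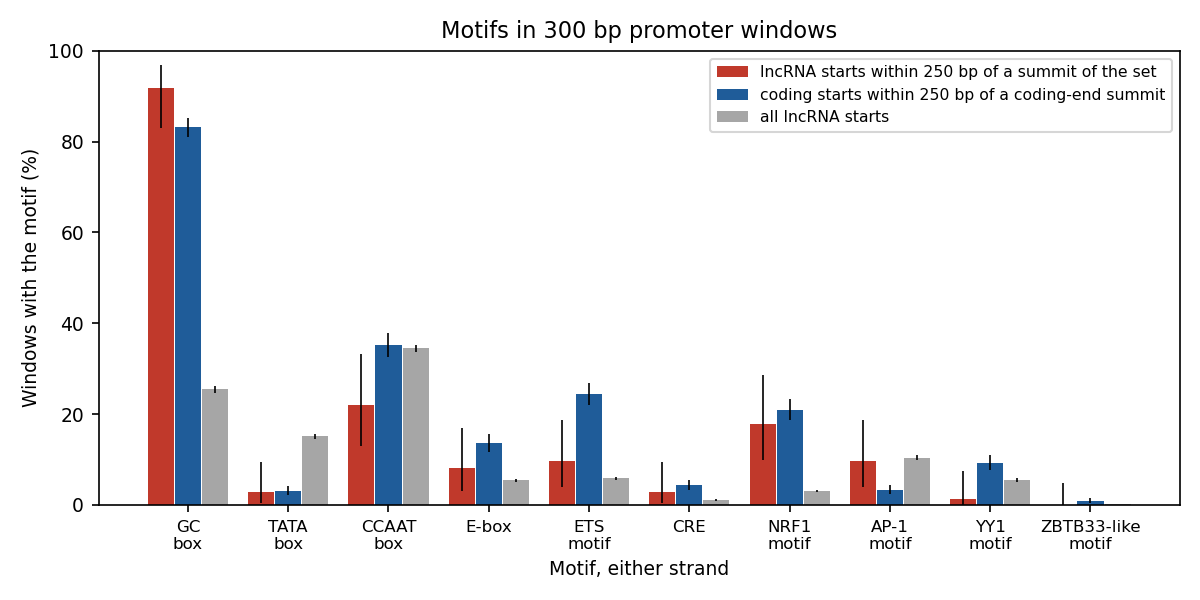
Share of 300 bp promoter windows that hold each motif on either strand (vertical axis, %), for lncRNA starts within 250 bp of a summit of the set (red), coding starts within 250 bp of a coding-end summit (blue) and all lncRNA starts (grey). Bars start at 0 and lines are exact 95% intervals; the GC box is in 91.8%, 83.3% and 25.5% of windows, and the ETS motif in 9.59%, 24.4% and 5.82%.

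Genes of small RNAs made by RNA polymerase III were represented by 9 summits near tRNA genes and 1 near RNU6-1, a U6 snRNA gene. Of the 538 genes on the polymerase III list 16 had a summit of the set (2.97%, 1.71 to 4.78), beside 0.762% of all non-coding genes. That list too was chosen with earlier results of these data known, and its share was not tested. The closest to a tRNA gene end lay inside the proline gene TRP-TGG3-3 on chromosome 16, 9 bp from its end (position 3158984, score 4.04). Others lay outside the gene, 52 bp from the leucine gene TRL-CAA4-1 (4.75), 55 bp from the threonine gene TRT-CGT4-1 (4.44) and 89 bp from the arginine gene TRR-CCG2-1 (4.68). On chromosome 17 a summit at 8121642 (2.52) lay within 2 kb of 3 tRNA genes, and another at 8220436 (3.54), nearest to LINC00324, also lay within 2 kb of 3. The 7 summits nearest to a tRNA gene scored from 2.52 to 4.75. Copies of a tRNA gene can have near-identical bodies, so reads falling inside a gene cannot always be placed, while flanking sequence is mostly unique. Among polymerase II snRNA genes, 1 of 41 had a summit of the set, the variant U1 gene RNVU1-21, which this annotation lists as a pseudogene.

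Genes of miRNAs lay within 2 kb of 17 summits. The summit at 2050356 on chromosome 17 (score 5.49) fell inside the MIR212 hairpin, 24 bp from its end, and 348 bp from MIR132. MIR6777 and MIR33B, both inside the sterol regulator gene SREBF1, shared a summit of 5.86 at 662 and 1018 bp. Others were at MIR6743 (4.72) inside RIC8A, MIR2276 (4.54), MIR3193 (4.04), MIR3190 with MIR3191 inside the apoptosis gene BBC3 (3.89), MIR658 (3.81), MIR99B (2.87, at 1857 bp), MIR1260B (2.87), MIR3065 with MIR338 and MIR657 (2.31) and MIR4505 (2.16). Hairpins are short and mostly inside longer transcripts, so proximity does not name the miRNA promoter.

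Among hosts of small nucleolar RNAs, which guide the modification of ribosomal RNA, 3 of 34 (8.82%, 1.86 to 23.7) had a summit of the set, beside 1.21% of all lncRNA genes. These were SNHG6 (3.43, 230 bp), SNHG15 (2.66, 193 bp) and ZFAS1 (4.28, 1207 bp), the last summit being nearest to SNORD12C inside ZFAS1 at 362 bp. With all summits counted, 9 of the 34 had one within 2 kb. The list of cancer-associated lncRNAs had 5 of 42 genes with a summit of the set (11.9%, 3.98 to 25.6), beside 1.21% of all lncRNA genes. By symbol, over all non-coding genes, the share was 2.52% for antisense genes, 1.56% for LINC genes and 0.575% for placeholder genes, which include pseudogenes. A further 4 symbols of the cancer list, BLACAT1, TINCR, TP53COR1 and TUG1, were not matched to a non-coding gene and were not counted. Both this list and that of snoRNA hosts were chosen with earlier results of these data known, and no excess was tested. The 5 genes of the cancer list were MIR31HG (4.94), LINC00511 (4.50, 270 bp), MALAT1 (4.48, 177 bp upstream), the imprinted antisense transcript KCNQ1OT1 (4.30, 475 bp) and CRNDE, named for its expression in colorectal neoplasia. CRNDE had 2 summits, at chromosome 16 positions 54929575 (3.02) and 54929010 (2.57), at 689 and 124 bp from the gene. The same summits were 1290 and 1855 bp from an end of the coding gene IRX5. Of 18 lncRNAs of the HOX clusters, 1 had a summit, HOXC13-AS (2.90, 282 bp).

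Close neighbours were about as frequent as in the whole list. Another summit lay within 10 kb of 29 of the 246 (11.8%, 8.04 to 16.5), where the share over all summits was 10.6%. Summits of the set shared a gene at CRNDE, HSPA2-AS1 and SPEN-AS1, where those at SPEN-AS1 scored 6.04 and 4.72 and lay 747 bp apart. By chromosome, the set's share of summits ran from 5.51% on chromosome 3 (7 of 127) to 18.2% on chromosome 18 (2 of 11). Chromosome 13 had 11 of 66 (16.7%, 8.62 to 27.9), chromosome 7 had 22 of 155 (14.2%, 9.11 to 20.7) and chromosome 17 had the most, 27 of 227 (11.9%, 7.99 to 16.8). Chromosome 19 had 10 of 171 (5.85%, 2.84 to 10.5). The interval of every chromosome included the overall 9.12%.

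**Figure D5:**
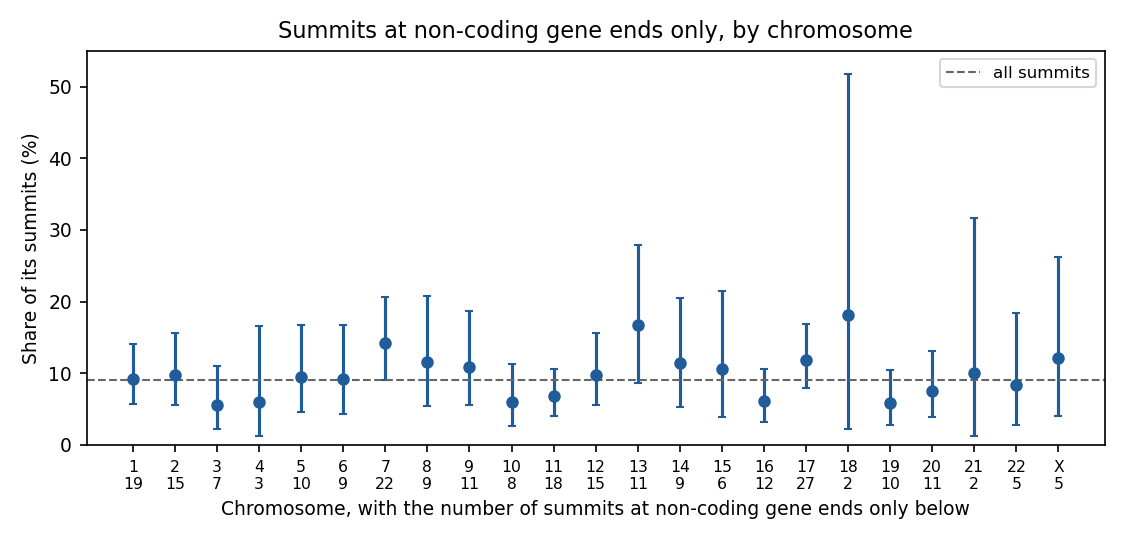
Share of each chromosome's summits that belong to the set (vertical axis, %), with exact 95% intervals, and the number in the set under each chromosome name (horizontal axis). The dashed line is the share over all summits, 9.12%, which lies within every interval.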

How the data were processed

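The summits carry hg38 coordinates, and the submitters' processing notes name MACS2 2.2.7.1, Bowtie2 2.4.4 and Trimmomatic 0.39. Per the design text, MACS2 called the peaks against input. Whether replicates were pooled is not stated. The deposited score column was read as −log10 of a q-value because its lowest value, 1.31, lies just above the 1.30 of a q of 0.05. It was used only within the list. Depth is unknown.

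Summits (1-based) were compared with 39642 non-coding and 20037 protein-coding genes of RefSeq GRCh38.p14 on chromosomes 1 to 22, X and Y. Starts, strand and 300 bp windows came from 35116 entries of a RefSeq promoter table, which matched 154 of 246 summits. Summits on chromosomes without entries were left out of shares that need them. Shares have exact Clopper-Pearson 95% intervals and medians have exact order-statistic intervals, computed with Python 3.11.15, pandas 2.3.3 and scipy 1.17.1. The rule was checked on simulated positions.

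No tests were made: the design holds 1 list without replicates. Members and gene lists were chosen with earlier results of these data known. Named genes are the highest scores (up to 20), small RNA genes, listed genes, genes with 2 summits and those at the rule's limits. The other genes, namely those of the transcribed pseudogenes, were chosen after their values were seen. ENEMAL and the examples of alternative coding starts are among the 20 highest scores. They and EN2-DT were also singled out after their values were seen.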

Additional observations from a re-analysis of the deposited data

How the results depend on the processing

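Of 68 alternative values, 51 stayed inside the main interval or, for counts, within 1.5 times the main value. The number of summits, 246, was 149 with 5 kb kept from coding ends, 137 when scores under the list's median were left out and 27 among the 270 highest. The share nearest to a lncRNA, 80.9%, was 72.7% without LOC genes, 89.4% without pseudogenes and 88.9% among the 270 highest. The share within 250 bp of the non-coding end, 42.3%, was 52.3% with a 1 kb window and 32.8% with 5 kb. The share inside a coding gene, 47.2%, was 38.5% and 34.2% with 2 and 5 kb kept from coding ends, and 30.9% without summits within 1 kb of any annotated coding start, an alternative chosen after seeing the data. Close summits, 11.8%, were 7.49% and 4.70% with 2 and 5 kb kept. The median score, 3.87, was 4.98 and 7.71 in the 2 selections on score. The share at the 5′ end, 87.7% of 154 summits, was 59.1% of the same 154 when that end had to lie within 500 bp. Within 500 bp of the 3′ end lay 3.25%. Median GC, 68.3% for all 151 lncRNA genes with a window, was 73% within 250 bp of the start. Each of these settings changes by construction which summits are included or, for the 5′ end, which of them count as being there. Leaving out the 3 highest-scoring summits, or immunoglobulin and T cell receptor segments, moved no value beyond its interval. No paired analysis was possible because the data are 1 summit list with no replicate numbers. Depth is unknown, so the absence of a summit at a non-coding gene says nothing of whether WSTF was there.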

Other observations

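The genes below were picked out after their values were seen. NR4A1, an orphan nuclear receptor gene on chromosome 12, held summits of the set at LOC107984510 (position 52051263, score 8.54) and LOC124902934 (52033188, 3.19). BAZ2B-AS1, a lncRNA inside the gene of another bromodomain protein of the BAZ family, had a summit of 1.73 at 380 bp from its end, near the low end of the scores in the set, which started at 1.41.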
